A study of Rattus norvegicus with 6 samples.

Results

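The cytosolic ribosomal protein genes of rat spinal cord were taken by name from a gene-level RNA sequencing table. Every row whose name began with Rpl or Rps and a number, together with Rplp0, Rplp1, Rplp2 and Rpsa, was a member, and names of the ribosomal S6 kinases were left out. This gave 121 of the 30957 rows of the table, carrying 98 different names. The rule used names only, and no measured value. Of the 121 rows, 90 carried the name of a subunit protein, 10 a pseudogene name ending in -ps, and 20 the name of a paralog or a row called "like". The last row, Rps19bp1, encodes a protein that binds a ribosomal protein and is not one itself.

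The libraries came from female Wistar rats on day 14 after surgery, with 3 libraries in each of 2 groups. In the bone cancer pain (BCP) group, living Walker 256 cells, a rat mammary carcinoma line, had been placed in the medullary cavity of the left tibia, and in the sham-operated group the cells had been killed by heat. The tissue was the ipsilateral lumbar enlargement of the spinal cord with the meninges removed, from which ribosomal-RNA-depleted, strand-specific total RNA libraries were made. The sources used here do not say how many animals went into a library, so p-values measure the spread between these libraries. The cells were implanted in the tibia and not in the cord that was sequenced. Whole tissue was used, so a change in the number of cells of a type and a change in RNA per cell cannot be told apart.

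A ribosome is built from a small subunit, which reads the messenger RNA, and a large subunit, which joins amino acids. Each subunit protein is normally present once per ribosome, except for the paired P1 and P2 proteins of the P stalk, an arm of the large subunit on which P0 is the base and which recruits the elongation factors. The messenger RNAs of these proteins start with a C followed by an unbroken run of pyrimidines, the 5′ terminal oligopyrimidine (TOP) tract. Through this tract their translation and stability answer to the kinase mTOR and the RNA-binding protein Larp1. Mammalian genomes also carry many processed copies of these genes, without introns and mostly not functional, whose sequences are close to those of the parent genes.

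Most of these genes had a pyrimidine run close to the annotated start, though often not at it. RefSeq promoter windows of the GRCr8 build were found for 53 of the 68 subunit names. A C followed by at least 5 pyrimidines (C or T), on the strand of the gene and starting within 25 bases of the annotated first base, was present in 46 of the 53 windows, or 86.8%, against 36.9% of all 33469 windows. Runs of 8 or more letters were present in 71.7% and 16.6%, respectively. The run began within 5 bases of the annotated first base in 22 windows. The following windows of 30 bases hold 15 bases before and 15 from the annotated first base, 5′ to 3′ on the gene's strand, with the pyrimidine run in capitals. The first 4 belong to members with a large difference between the groups, the next 3 to abundant members with a smaller one, and Rpl41 is an abundant member that did not pass the test.
Rplp0: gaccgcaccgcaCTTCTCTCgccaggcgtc
Rplp1: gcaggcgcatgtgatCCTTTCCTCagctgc
Rps27: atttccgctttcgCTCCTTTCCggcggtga
Rps2: CCTCTTCTTTTTCTTCgggaaaacacgtga
Rpsa: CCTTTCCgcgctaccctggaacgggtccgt
Rpl4: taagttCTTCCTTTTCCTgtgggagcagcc
Rpl19: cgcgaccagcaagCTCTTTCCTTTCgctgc
Rpl41: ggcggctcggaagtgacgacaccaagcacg
These windows lie at chr12:46718376-46718405 (minus strand) for Rplp0, chr8:71290858-71290887 (minus) for Rplp1, chr2:177964592-177964621 (minus) for Rps27, chr10:14251833-14251862 (plus) for Rps2, chr8:128728864-128728893 (plus) for Rpsa, chr8:73566462-73566491 (plus) for Rpl4, chr10:83519049-83519078 (plus) for Rpl19 and chr7:1563483-1563512 (minus) for Rpl41. In Rps2 the run of 20 letters starts before the printed window, and in Rpsa the run ends before the annotated first base. No run of this kind was found at the annotated start of Rpl41, Rpl3, Rpl6, Rpl11, Rpl24, Rps27a and Rps4x, which says only that these letters are not there in this annotation. Searched on both strands of the whole window, the letters CCGGAAG were present in 35.8% of the 53 windows and 8.75% of all windows, and AAGATGGC in 7.55% and 3.17%. These letter matches are descriptions and do not show that a factor binds there.

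Counted reads totalled 11779485 to 15004290 per library. The edgeR quasi-likelihood test was run on the 14908 rows that passed a filter on low counts, with Benjamini-Hochberg adjustment over all of them, and a row was called at an adjusted p below 0.05. Among the members, 89 rows passed the filter and 32 did not, of which 17 were listed at 0 in every library. Markers of other cell types moved between the groups, and their values are given after the members.

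Ribosomal protein transcripts were higher in BCP than in sham, by a modest amount shared over most of the family. Of the 89 rows tested, 47 (52.8%) were called higher and none was called lower, against 15.8% of all tested genes called higher and 12.1% called lower. No member had an unadjusted p under 0.05 in the lower direction either, and DESeq2 and the edgeR exact test also called none lower. The median log2 fold change (log2FC) of BCP over sham was 0.33, a ratio of 1.26, with the middle 50% of the rows between 0.16 and 0.47. The corresponding median over all tested genes was −0.01, with the middle 50% between −0.16 and 0.17. The log2FC was positive in 79 of the 89 rows, called or not, against 7116 of all 14908 tested. A second criterion, an adjusted p below 0.05 with a change of more than 2-fold, was met by 1 member, Rpl10l, against 6.35% of all tested genes in the higher direction and 0.107% in the lower.

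**Figure D1:**
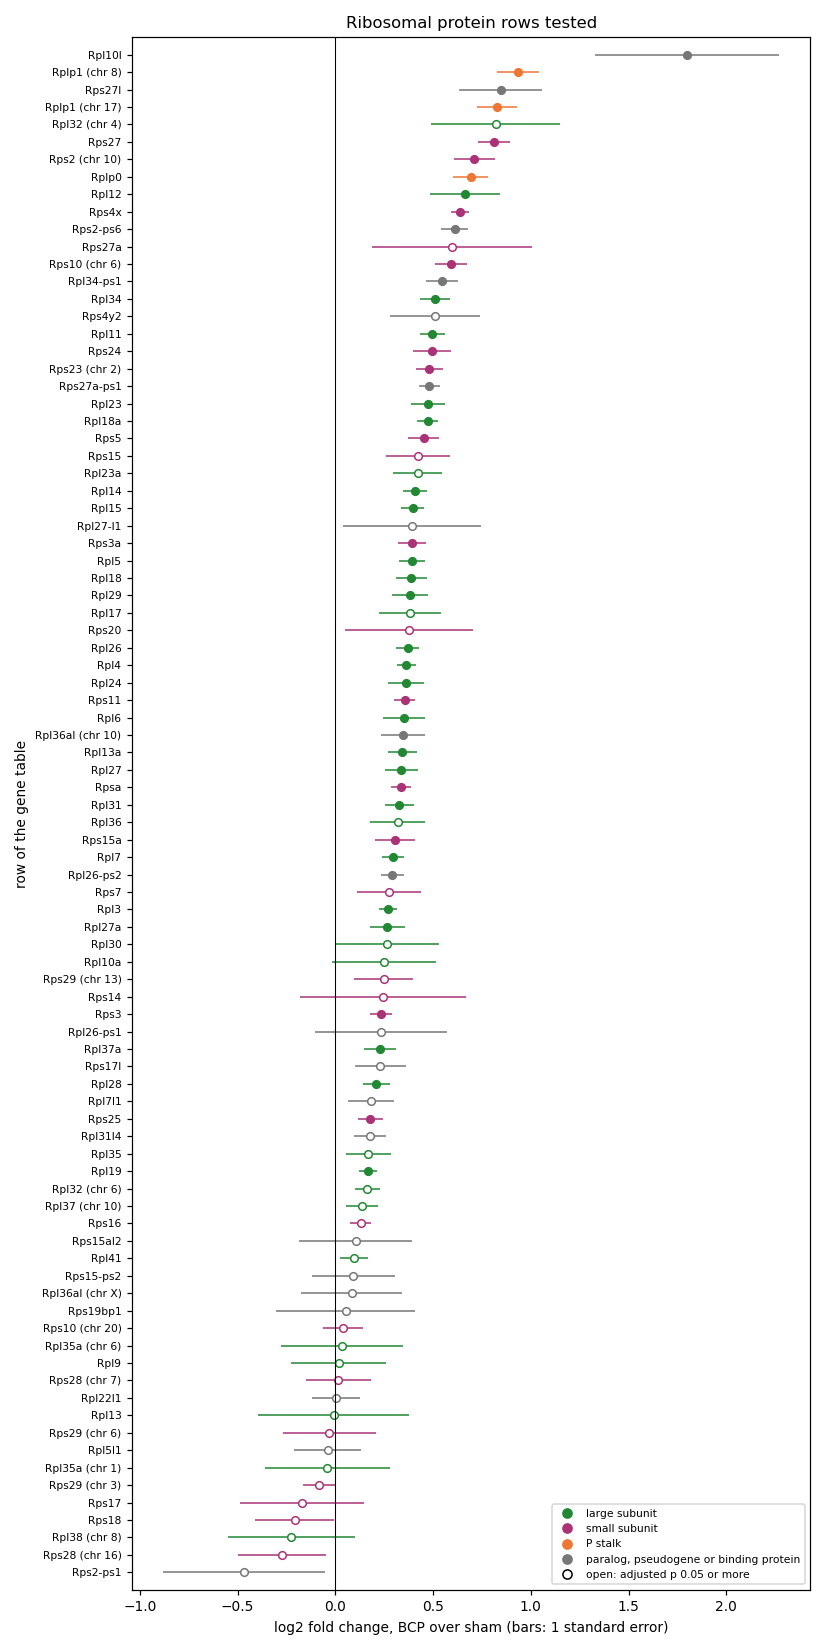
Tested ribosomal protein rows are plotted on a line each, apart from those not reported here, with log2 fold change (BCP over sham) on the horizontal axis, bars of 1 standard error, colour for the subunit and open symbols for an adjusted p of 0.05 or more. The called rows all lie right of 0, between 0.17 and 1.80, and the rows left of 0 are open symbols.

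The 2 subunits had nearly equal medians. Among rows named for large subunit proteins other than the P stalk, 23 of 38 tested were called higher, with a median log2FC of 0.33, and among small subunit rows 14 of 28, with a median of 0.32. Most calls came from abundant rows. Of the 54 rows with a mean of at least 20 CPM (counts scaled to the TMM-adjusted library size), 43 were called higher and the median log2FC was 0.38. Over all 7996 genes at that level, 1240 were called higher and 1583 lower, with a median of −0.03. Of the 35 tested rows below 20 CPM, 4 were called higher, with a median log2FC of 0.18. That is 11.4%, not above the 15.8% of all tested genes called higher. Every BCP library lay above every sham library in 55 of the 89 rows, against 21.7% of all tested genes, and the reverse order was seen in none of the 89 against 19.7%.

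The summed share of counted reads that fell on the 121 rows gave the same picture library by library. The share was 0.408%, 0.399% and 0.394% in sham replicates 1 to 3 and 0.501%, 0.553% and 0.559% in BCP replicates 1 to 3. The means were 0.4003% ± 0.00747 (SD, n = 3) and 0.537% ± 0.0316 (SD, n = 3), a ratio of 1.34. The 2 groups did not overlap, and BCP replicate 1 was the lowest of its group. The same replicate was lowest in the median over the 54 rows with at least 20 CPM, where the log2 ratio to the sham mean was 0.30, 0.41 and 0.42 in the BCP libraries and 0.04, −0.01 and −0.03 in the sham libraries. Every BCP library lay above every sham library in 47 of these 54 rows, against 1724 of all 7996 genes at that level. With 3 libraries a group an exact permutation test of 1 value cannot give a two-sided p below 0.1, so no p is given for the share. Without mitochondrial genes in the library total the ratio of the shares was 1.34, and over the 90 rows with subunit names alone it was also 1.34.

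**Figure D2:**
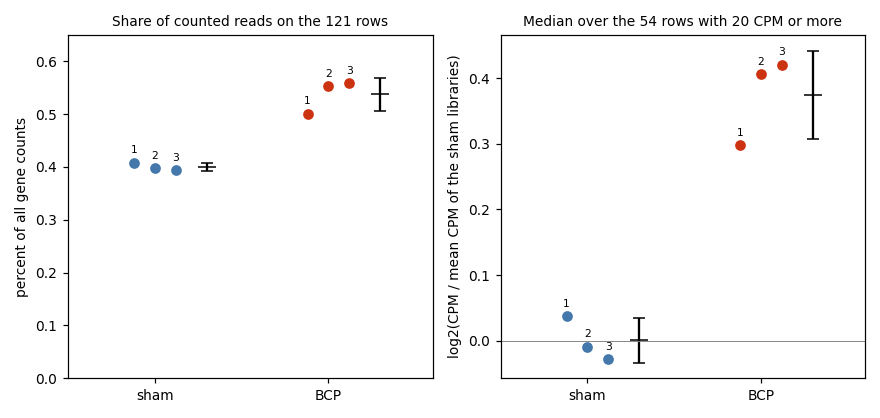
The left panel plots the percent of all gene counts that lay on the 121 ribosomal protein rows in each library, and the right panel the median log2 ratio of CPM to the sham mean over the 54 rows with at least 20 CPM. Points are libraries numbered by replicate, and black bars are the mean and SD of 3; the BCP libraries lie between 0.501% and 0.559% and the sham libraries between 0.394% and 0.408%.

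The 2 rows of the stalk protein Rplp1 had the largest log2FC of the tested rows with subunit names. Rplp0 encodes the base of the stalk and lies on chromosome 12 (46791528 to 46794797 in the Rnor_6.0 build used by the files). Its level was 224, 223 and 212 CPM in sham and 305, 366 and 392 CPM in BCP, a log2FC of 0.69 (SE 0.087, adjusted p 0.000651 by the edgeR quasi-likelihood test). All BCP libraries were above all sham libraries, and BCP replicate 1 stood closest to sham. Rplp1 encodes the P1 protein, and the table held it in 2 rows with introns. The row on chromosome 8 (66862143 to 66863476) had 22.8, 21.6 and 16.3 CPM in sham and 36.6, 39.2 and 39.7 CPM in BCP, a log2FC of 0.93 (SE 0.11, adjusted p 1.95e-06). The row on chromosome 17 (9233514 to 9234766) had 32.2, 30.6 and 23.6 CPM in sham and 47.8, 54.8 and 49.9 CPM in BCP, a log2FC of 0.82 (SE 0.10, adjusted p 1.28e-05). Neither row overlapped between groups, and sham replicate 3 was the lowest library in both. Reads shared between such near-identical copies cannot be placed, and the values of a single copy are uncertain for that reason.

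The third stalk protein shows how the rows of the table divide the family. The row named Rplp2 was listed at 0 in all 6 libraries. A row without introns described as similar to the P2 protein, LOC498555, held 3096 counts over the 6 libraries and was called higher, with a log2FC of 0.30 (SE 0.075, adjusted p 0.00479). With all rows described as P2 summed, the level was 39.2, 36.4 and 39.8 CPM in sham and 46.4, 50.1 and 45.9 CPM in BCP, without overlap. This log2FC of 0.30 was smaller than that of Rplp0 and Rplp1, and the difference between the genes was not tested.

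Rps27, a small subunit protein with a zinc finger, rose by a similar amount. Its level was 27.4, 26.5 and 24.8 CPM in sham and 42.8, 46.5 and 48.5 CPM in BCP, a log2FC of 0.81 (SE 0.082, adjusted p 2.37e-07), on chromosome 2 (189572176 to 189573280). Its paralog Rps27l, known as a target of p53, was less abundant per length (3.94 FPKM against 75.6 FPKM in sham), at 2.74, 3.42 and 2.63 CPM in sham and 5.24, 4.85 and 5.75 CPM in BCP (log2FC 0.85, SE 0.21, adjusted p 0.00467). The libraries of the 2 groups did not overlap for either gene.

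Rps2, near the messenger RNA entry channel, had an intron-containing row on chromosome 10 (14088319 to 14089979) with 18.3, 16.9 and 14.0 CPM in sham and 27.0, 27.1 and 26.2 CPM in BCP, a log2FC of 0.71 (SE 0.10, adjusted p 2.5e-05). Most of the reads of this protein lay elsewhere, on the row named Rps2-ps6 on chromosome 9, which had 126, 143 and 117 CPM in sham and 183, 206 and 200 CPM in BCP (log2FC 0.61, SE 0.068, adjusted p 1.13e-05). Both rows rose, and in both the groups did not overlap. Rps4x was the member with the smallest p. Its level was 150, 147 and 144 CPM in sham and 221, 236 and 227 CPM in BCP, a log2FC of 0.64 (SE 0.047, adjusted p 2.45e-09). That row lies on chromosome 4 without introns, whereas RefSeq places the gene Rps4x on chromosome X in GRCr8. A row with introns on chromosome X described as X-linked S4, LOC100362640, held 134 counts over the 6 libraries. It was not called (log2FC 0.23, SE 0.33).

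The row named Rpl12, a large subunit protein at the base of the stalk, had 4.24 ± 0.287 CPM in sham and 6.71 ± 0.221 CPM in BCP (SD, n = 3). Its log2FC was 0.66 and it was called. That row held 441 of the 4276 counts on all rows assigned to this protein. Summed, these rows had 42.3 ± 2.73 CPM in sham and 63.5 ± 1.64 CPM in BCP (SD, n = 3), a log2FC of 0.59 (SE 0.070). The small subunit protein Rpsa, also known as the laminin receptor, was among the most abundant members. It had 191, 197 and 191 CPM in sham and 223, 249 and 259 CPM in BCP, a log2FC of 0.34 (SE 0.052, adjusted p 5.27e-05), close to the median of the family. Rpl5 and Rpl11, which with the smallest ribosomal RNA bind Mdm2 when ribosome assembly is disturbed, had log2FC of 0.39 and 0.50 and were both called higher.

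**Figure D3:**
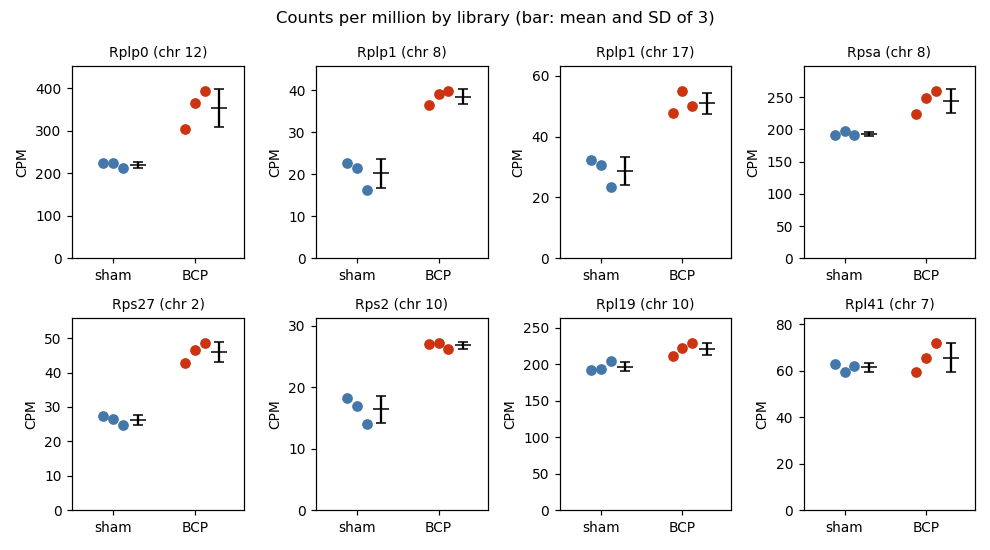
CPM of 8 ribosomal protein rows in each library, with sham in blue, BCP in red, black bars for the mean and SD of 3 libraries and axes that start at 0. The groups do not overlap in any panel but that of Rpl41, where BCP replicate 1, at 59.4 CPM, lies at the level of the sham libraries.

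At the other end, the called members with the smallest difference were Rpl19 (log2FC 0.17, SE 0.047), Rps25 (0.18), Rpl28 (0.21), Rpl37a (0.23), Rps3 (0.23) and Rpl27a (0.27). Rpl19 had 193, 194 and 204 CPM in sham and 212, 223 and 229 CPM in BCP, with an adjusted p of 0.0105. The groups were close but did not overlap. The call of Rpl28 was lost under 6 of 16 alternatives. The calls of Rps25 and Rpl37a, with adjusted p of 0.0465 and 0.042, were lost under 10 and 11 of 16 alternatives, the replicate block among them (0.0677 and 0.0643).

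Among the 54 more abundant rows, 11 were not called, and they fell into 2 kinds. Rpl17, Rps15 and Rpl23a had log2FC of 0.38, 0.42 and 0.42 but a wide spread in BCP. Rps15, for example, had 76.9, 86.3 and 77.3 CPM in sham and 83.7, 122 and 115 CPM in BCP (adjusted p 0.139), so that BCP replicate 1 lay among the sham libraries. The other rows differed little. Rpl41, the smallest ribosomal protein, had 63.0, 59.4 and 61.8 CPM in sham and 59.4, 65.6 and 71.7 CPM in BCP (log2FC 0.10, SE 0.070). Rps16 had 84.3, 79.3 and 79.5 CPM in sham and 90.2, 87.2 and 88.6 CPM in BCP (log2FC 0.13, SE 0.055, adjusted p 0.0873), without overlap. The intron-free row of Rps29 on chromosome 3 had 42.4, 46.5 and 49.2 CPM in sham and 39.8, 44.0 and 46.7 CPM in BCP, a log2FC of −0.08 (SE 0.080). The 5 remaining rows (Rpl31l4, Rpl32 on chromosome 6, Rpl35, Rpl37 on chromosome 10 and Rps10 on chromosome 20) had log2FC between 0.04 and 0.18.

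How reads were divided among near-identical copies bears on every value above. From the counts and the FPKM of each row (the authors' level scaled by length and depth) the counted length was recovered, and compared with the distance from start to end. In 68 rows the counted length was shorter than the span, as in a gene with introns. In 27 rows it was not shorter than the span (one block, as in a processed copy), and in 26 rows there were fewer than 20 counts over the 6 libraries and no length was computed. Among the one-block rows Rps2-ps6 had a counted length of 1167 bases, longer than its span of 870. Several rows with the name of a parent gene were nearly empty. The rows named Rplp2 and Rpl8 were listed at 0 in every library and those named Rps19 and Rpl13 had under 2 CPM, while all rows described as one of these 4 proteins summed to 2973 to 11358 counts a protein. For Rps6, Rps14 and Rpl7a no row held many reads: all rows described as these proteins summed to 0, 65 and 75 counts over the 6 libraries. Under the names of the list no row was found for 11 of the 79 subunit proteins, among them Rpl10, Rpl21, Rps9 and Rps12. Another 227 rows outside the naming rule were described as cytosolic ribosomal proteins, of which 63 were tested, 23 were called higher and none lower (DESeq2 called 19 higher and none lower, and at an unadjusted p under 0.05 edgeR had 28 higher and none lower).

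Both kinds of row held called members. Of the 65 tested rows with introns, 39 were called higher, with a median log2FC of 0.34, and of the 24 tested rows in one block, 8, with a median of 0.23. The one-block rows took 18.8% ± 0.290 (SD, n = 3) of the members' counts in sham and 19.4% ± 0.304 in BCP. The 2 groups lay close together but did not overlap, at 18.4% to 19.03% in sham and 19.1% to 19.7% in BCP.

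To set the copies aside, the counts of all rows assigned to a protein by name or description were summed before the test, an alternative added after the data had been seen. Of 88 proteins, 83 passed the filter. In this edgeR fit 59 were called higher and none lower (68 and 0 at an unadjusted p under 0.05), against 15.8% and 12.1% of all rows tested in it, and the median log2FC was 0.34. For 30 of the 79 subunit proteins more than 50% of the counts lay on one-block rows. Proteins whose reads lay outside a row of their own name were among those that rose most. Rpl10 had 119, 115 and 106 CPM in sham and 171, 166 and 178 CPM in BCP (log2FC 0.60, SE 0.053), all on the row RGD1563861 on chromosome X. Rps7, whose named row was not called, rose with its copies from 122, 119 and 120 CPM in sham to 160, 180 and 171 CPM in BCP (log2FC 0.51, SE 0.052).

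Rows of one protein did not always move together. The intron-containing row of Rps10 on chromosome 20 had 30.02, 26.7 and 32.8 CPM in sham and 27.3, 29.6 and 35.1 CPM in BCP (log2FC 0.04, SE 0.10), with overlapping groups. The one-block row of Rps10 on chromosome 6 had 31.5, 34.96 and 30.8 CPM in sham and 45.3, 48.5 and 52.6 CPM in BCP (log2FC 0.59, SE 0.082, adjusted p 1.37e-05), without overlap. Summed, Rps10 had a log2FC of 0.35. With the RNA counts of each protein's rows summed, the smallest differences included Rps28 (−0.07), Rps29 (−0.03), Rpl35a (−0.02), Rpl41 (0.10) and Rps16 (0.13). None of these was called. Sums of the 7 tested proteins without a pyrimidine run at the annotated start had a median log2FC of 0.40, and those of the 45 with one a median of 0.34, values that stand as a description of these sets.

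**Figure D4:**
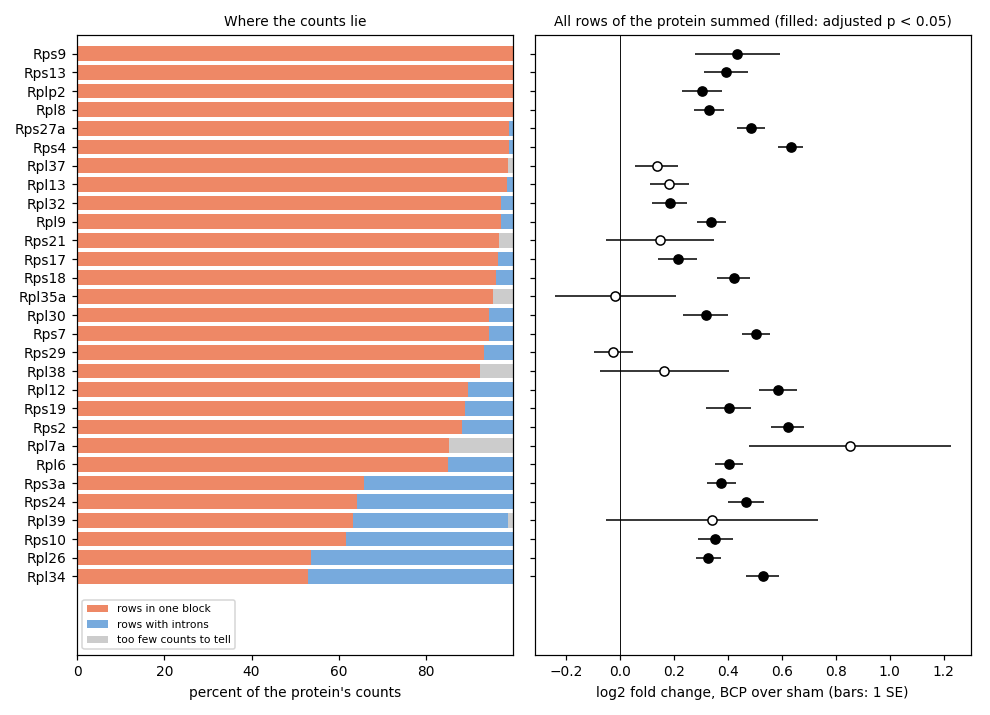
For subunit proteins with more than 50% of their counts on rows in one block, apart from those not reported here, the left panel gives the percent of counts on rows in one block (orange), on rows with introns (blue) and on rows with too few counts to tell (grey), and the right panel the log2 fold change of the summed rows with bars of 1 standard error and filled symbols for an adjusted p below 0.05. Rps4, Rpl12, Rps2 and Rps7 are among the called proteins furthest to the right, Rpl7a (open symbol, 0.85, SE 0.38) had few counts, and Rps29 and Rpl35a lie near 0.

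The pseudogene-named and paralog rows were divided, and none was tested against its parent. Of the 7 pseudogene-named rows tested, 4 were called higher, namely Rps2-ps6, Rpl34-ps1 (log2FC 0.55), Rps27a-ps1 (0.48) and Rpl26-ps2 (0.29), and in each of these 4 proteins more than 50% of the counts lay on one-block rows. Rpl26-ps1, Rps15-ps2 and Rps2-ps1 were not called and had at most 4.16 CPM in any library. Rpl36al, a paralog of Rpl36a, had a one-block row on chromosome 10 that was called higher (16.0 ± 1.43 CPM in sham and 20.3 ± 2.57 CPM in BCP, SD, n = 3; log2FC 0.35, a call lost under 4 of 16 alternatives), and a less abundant row on chromosome X that was not (0.08). Rpl22l1 had 12.4 CPM in each group on average (log2FC 0.00, SE 0.12), and Rpl7l1 had a log2FC of 0.18 (adjusted p 0.273). Rps4y2 (log2FC 0.51, adjusted p 0.112), Rps19bp1 (0.05), and Rpl31l4, Rps17l, Rps15al2, Rpl27-l1 and Rpl5l1 (between −0.04 and 0.39) were not called. Rpl3l, a muscle paralog, and Rpl39l, a testis paralog, had 9 and 19 counts over all libraries and were not tested.

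Rpl10l, a copy of Rpl10 without introns known from testis, was the member past the 2-fold threshold. It had 22, 13 and 2 counts in sham and 36, 45 and 40 counts in BCP, a log2FC of 1.80 (SE 0.47, adjusted p 0.0132), on chromosome 6 (88231611 to 88232252). Sham replicate 3 was far below the other sham libraries, and the log2FC without it was 1.27. The call was lost without sham replicate 2 (adjusted p 0.0724), BCP replicate 2 (0.0571) or BCP replicate 3 (0.0534).

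Per length, the rows with subunit names were far from equal. Over the 69 tested rows with subunit names the median was 53.7 FPKM in sham and 71.0 FPKM in BCP, and the middle 50% ran from 17.3 to 97.6 FPKM in sham. The rows above 100 FPKM numbered 16 in sham and 25 in BCP. Rpl19 was highest in sham, at 276 ± 9.36 FPKM (SD, n = 3), followed by Rps29 on chromosome 3 at 266 ± 20.5 FPKM and Rpl29 at 227 ± 23.9 FPKM, then Rplp0 at 198 ± 6.02 FPKM and Rpsa at 187 ± 3.76 FPKM. Neighbours in this order overlapped at 1 SD from Rpl19 down to Rplp0, whereas Rplp0 and Rpsa did not. In BCP the order had changed at the top, with Rplp0 at 329 ± 43.9 FPKM, Rpl19 at 319 ± 14.8 FPKM and Rpl29 at 305 ± 32.8 FPKM, which all overlapped at 1 SD. Among the lowest subunit-named rows were copies of Rpl35a listed at 0. The FPKM of a row leaves out reads placed on other copies of its protein. The Rpl13 row, at 1.35 FPKM in sham, held 71 of the 4776 counts summed for that protein. A long gene model lowers the FPKM: Rpl7, at 23.1 FPKM in sham, was counted over 5151 bases.

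The rest of the translation machinery was examined in gene lists chosen with earlier results of these data known. Among 19 tested rows of other TOP messenger RNAs, 12 (63.2%) were called higher and none lower. Over all tested genes, 15.8% were called higher and 12.1% lower. The median log2FC of the 19 rows was 0.30. Pabpc1, the cytoplasmic poly(A)-binding protein, rose most, from 256 ± 1.62 to 501 ± 41.2 CPM (SD, n = 3; log2FC 0.97, SE 0.052, adjusted p 4.81e-11). Npm1, a nucleolar chaperone, rose with a log2FC of 0.49, and the elongation factor Eef1a1 with one of 0.43, whereas Eef1a2, the form of the same factor found in neurons and muscle, fell by 0.32 on the log2 scale. Eef2, which moves the ribosome along the messenger RNA, had 1271 ± 45.8 CPM in sham and 1326 ± 24.1 CPM in BCP and was not called.

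Initiation factors and assembly factors had medians nearer to 0, and the difference between the lists was not tested. The shares called are to be set beside 15.8% of all tested genes called higher and 12.1% called lower. Of 37 tested initiation factors, 13 (35.1%) were called higher and none lower, with a median log2FC of 0.10. Eif3e (0.37), a subunit of the scaffold factor eIF3, and the helicase Eif4a1 (0.35) were at the top. Of 15 tested elongation and release factors, 8 (53.3%) were called higher and 2 lower. Eef1a1 and Gtpbp1 (log2FC 0.33) were the strongest of those called higher. The 2 lower were Eef1a2 and Hbs1l, a ribosome rescue factor (log2FC −0.17). The call of Hbs1l was lost under 7 of 16 alternatives, and DESeq2 and the edgeR exact test each called 1 lower. Of 50 tested ribosome biogenesis genes, 11 (22.0%) were called higher, near the 15.8% of all tested genes. None was called lower, and the median log2FC was 0.13. Fbl, the methyltransferase of ribosomal RNA, had a log2FC of 0.51 and Gar1, of the pseudouridylation particle, one of 0.49, a call lost under 5 of 16 alternatives. In the lists with none called lower, no gene was lower at an unadjusted p under 0.05 by edgeR, DESeq2 or the edgeR exact test. Several genes stand in more than 1 of these lists.

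Among 25 tested regulators of mTOR and TOP messenger RNAs, 7 (28.0%) were called higher and 2 lower, with a median log2FC of 0.00. Over all tested genes, 15.8% were called higher and 12.1% lower. Mtor itself had 199 ± 11.2 CPM in sham and 189 ± 5.37 CPM in BCP (adjusted p 0.302). Tsc2 and Tsc1, the 2 proteins of the complex that restrains mTOR, fell by 0.28 and 0.21 on the log2 scale. Larp1 rose with a log2FC of 0.15, a call lost under 4 of 16 alternatives, and Eif4ebp1, a repressor of initiation, rose from 1.99 ± 0.214 to 5.01 ± 0.668 CPM (log2FC 1.33). Myc, a transcription factor that drives ribosomal genes, rose from 3.42 ± 0.805 to 15.8 ± 1.51 CPM (SD, n = 3; log2FC 2.21, SE 0.17, adjusted p 5.04e-09).

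The mitochondrial ribosomal proteins and the nuclear genes of the respiratory chain held no gene called higher. Over all tested genes, 15.8% were called higher and 12.1% lower. Of the 73 tested rows named as mitochondrial ribosomal proteins, none was called higher and 1, Mrpl44, was called lower. Their median log2FC was −0.02. In 4 of them every BCP library lay above every sham library, and in 4 the reverse, against 21.7% and 19.7% of all tested genes. Of 52 tested nuclear genes of the respiratory chain, none was called higher and 10 were called lower, with a median log2FC of −0.12. The 10 called lower were led by Cox5b (fell by 0.48 on the log2 scale) and Cox8a (fell by 0.39 on the log2 scale). DESeq2 and the edgeR exact test called none of either list higher, and at an unadjusted p under 0.05 edgeR had 1 respiratory chain gene higher and no mitochondrial ribosomal protein. The call of Mrpl44 was lost under 12 of 16 alternatives.

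**Figure D5:**
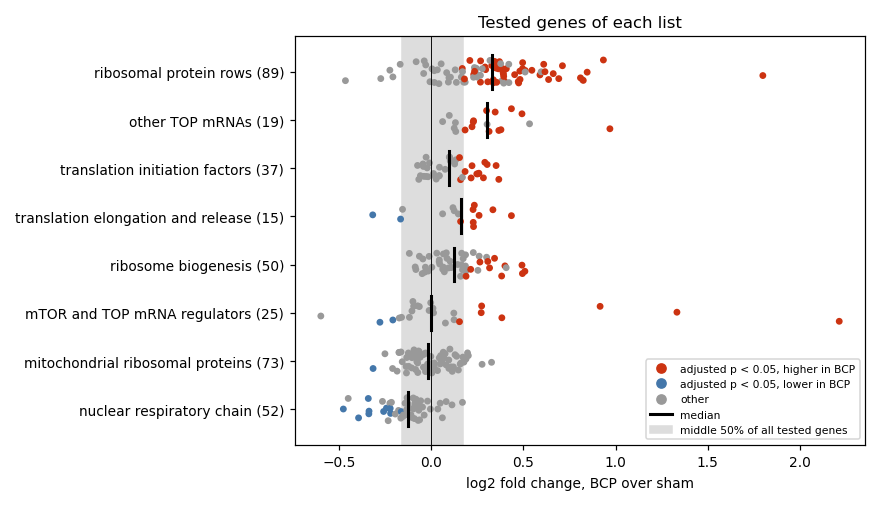
Each point is a tested gene of the ribosomal protein rows or of one of the 7 other lists, placed by log2 fold change (BCP over sham), with red for called higher, blue for called lower, grey for not called, a black bar at the median of each list and a grey band for the middle 50% of all tested genes. The medians of the ribosomal protein rows (0.33) and of the other TOP messenger RNAs (0.30) lie right of the band, and that of the respiratory chain (−0.12) lies left of 0.

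Cell type markers moved between the same groups. The 11 microglia markers summed to 273 to 355 CPM in sham and 861 to 1034 CPM in BCP, and 8 of the 11 were called higher. T cell markers summed to 6.08 to 6.77 CPM in sham and 52.3 to 58.7 CPM in BCP, with 8 of 8 tested called higher, and the 5 red blood cell markers summed to 245 to 261 CPM in sham and 472 to 683 CPM in BCP, all called higher. The 8 oligodendrocyte markers, all called lower, summed to 39530 to 44910 CPM in sham and 28490 to 31700 CPM in BCP. Of 10 neuron markers 5 were called lower (6005 to 6118 CPM in sham and 5131 to 5677 CPM in BCP). The astrocyte markers summed to 6481 to 6716 CPM in sham and 7580 to 9656 CPM in BCP, with 1 called higher and 3 lower of 7. The 3 tested markers of meninges and fibroblasts and the 4 of endothelial cells were not called, Col1a2 was listed at 0, and the 5 B cell markers were too low to test. The meninges and fibroblast markers summed to 28.0 to 48.1 CPM in sham. Their sum was 97.4 CPM in BCP replicate 1 against 43.3 and 42.1 CPM in BCP replicates 2 and 3. Of 5 tested dorsal root ganglion and nerve root markers 1 was called lower. BCP replicate 1, lowest of its group for the ribosomal proteins, had the lowest microglia (861 CPM) and red blood cell (472 CPM) sums of the BCP libraries and the highest astrocyte sum (9656 CPM). That sum rests on Aqp4, with 2413 CPM in BCP replicate 1 against 360 and 361 CPM in the other BCP libraries, while Gfap was lowest of the group there. The part of these cell types in the ribosomal protein result was not tested.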

How the data were processed

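The study sequenced 6 libraries, 3 sham and 3 BCP. Per the labels, the authors aligned reads to Rnor_6.0 with HISAT2 (version 2.0.4) and used StringTie (version 1.3.0); the deposited table held raw read counts per gene and FPKM values made by the authors from those counts. How reads shared between copies were counted is not given in the sources used here. The members and gene lists were chosen with earlier results of these data known.

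Counts were normalized with TMM (factors 0.982 to 1.02), filtered with filterByExpr and tested with the edgeR quasi-likelihood test (edgeR 4.0.16, R 4.3.3, robust), BCP against sham, adjusted by Benjamini-Hochberg over all 14908 rows tested. CPM used the TMM-scaled library sizes. Fold changes are log2 of BCP over sham with their standard errors. FPKM values served for levels and, as log2(FPKM + 1) in limma 3.58.1, as an alternative, as did DESeq2 1.42.0, other scalings and filters, a replicate block and leaving out each library. Proteins with several rows were also tested on summed counts. No 2 libraries of a group agreed within sampling noise (chi-square per degree of freedom 3.61 to 6.33). The test was checked on simulated data with 200 changed genes. It recovered 45% of changes of 0.4 on the log2 scale and 90% of changes of 1, with 3.57% of calls false. The changed genes were drawn at random, and every simulated gene had the same spread between libraries, unlike the data. These rates need not hold for members with a wider spread. A member that was not called may therefore still differ by a small amount. Shares, pyrimidine runs and marker sums were computed in Python 3.11.15 and figures drawn with matplotlib 3.10.9.

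Genes named in the text were the P stalk and Rpsa, the 6 called subunit rows with the largest and the 6 with the smallest log2FC, the 3 highest and lowest by FPKM, every paralog, pseudogene-named row or row past 2-fold, the 2 strongest called genes a direction in each list, and Mtor, Larp1, Eif4ebp1 and Myc. Rpl5, Rpl11, Rpl13, Rps4x, Rps7, Rps10, Rpl10, LOC498555, LOC100362640 and Eef2 were named after their values were seen. So were the uncalled abundant rows and the proteins without a difference after summing. The authors' lncRNA table was not used, and some items are not reported here.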

Additional observations from a re-analysis of the deposited data

How the results depend on the processing

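No member was called lower under any of the 16 alternatives, and 37 of the 47 calls held in all of them. The count called higher ran from 43 (DESeq2) to 54 (limma on FPKM) over other tools, filters and scalings, and from 39 (without BCP replicate 2) to 51 (without BCP replicate 1) with a library left out. The median log2FC ran from 0.31 to 0.38 with a library left out and was highest without BCP replicate 1. With copies summed, an alternative chosen after seeing the data, 47 to 60 proteins were called and the median was 0.32 to 0.39. Of rows in one block alone, 8 of 24 were called; 24 is also a smaller number to draw from. Past 2-fold there were 2 members without a filter (Rpl10l and Rps2-ps2), 0 with at least 10 counts in every library, which removes Rpl10l, and 0 to 2 with a library left out, also 0 to 1 with copies summed. In the pathway lists 43 rows were called higher and 15 lower, and 8 to 15 lower with a library left out. The summed share ratio ran from 1.32 to 1.39 with a library left out. Replicate numbers did not pair the libraries (correlations of same-numbered deviations −0.11, 0.04 and −0.04). With the replicate block 46 members were called, and 57 proteins with copies summed; among named genes it changed only Rps25 and Rpl37a. Named genes lost a call in 70 and gained one in 2 of 846 comparisons, and none reversed. The number of libraries, 3 a group, limits rows with a wide spread such as Rps15 more than those with a small standard error such as Rps16.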
